A study of Homo sapiens with 96 samples.

Results

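Splicing of 10 genes that textbooks use as examples of mutually exclusive exons was measured in A549 cells, a human lung adenocarcinoma line. The genes were PKM, TPM1, TPM2, TPM3, ACTN1, ACTN4, FYN, MAPK8, MAPK9 and SLC25A3 and were taken as a list of names. Every event of 2 types with one of these symbols was used. In a mutually exclusive exon (MXE) event 1 of 2 neighbouring exons is spliced in, and in a skipped exon (SE) event 1 exon is included or left out. The 10 genes, of 14096 genes with an event of either type, held 287 of the 217309 events, namely 85 MXE events over 63 exon pairs and 202 SE events over 109 exons.

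Cells were grown with 1 µM GSK591, an inhibitor of PRMT5, with 1 µM MS023, an inhibitor of the Type I protein arginine methyltransferases (PRMTs), with both, or with 0.01% DMSO, and poly(A) RNA was sequenced. Each inhibitor was given for 2, 4 or 7 days and the combination for 2 or 4 days, with 3 libraries in each of 10 groups, 30 in all. DMSO was given for 4 or 7 days. The 3 DMSO libraries of 4 days served as controls of every 2-day and 4-day group, so those 6 comparisons share them, and the 3 of 7 days served the 7-day groups. These groups include no DMSO of 2 days. A 2-day difference therefore also sets 2 days against 4 days, and inhibitor and time cannot be told apart in it. All groups are the same cell line. Nothing in the labels says whether libraries of a group came from separate cultures, so the spread between libraries may be technical. The p-values rest on that spread, with the dispersion of each event drawn towards a value shared by many events. Libraries of a group are called a, b and c in the order of the table, which pairs no libraries between groups.

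Mutually exclusive exons lie side by side, usually arose by duplication of an exon, and replace one stretch of a protein with another. In PKM, the last enzyme of glycolysis, the upstream exon of the pair gives PKM1, the form of muscle and brain, and the downstream exon gives PKM2, the form of proliferating cells and most tumours. Proteins that bind pyrimidine-rich RNA, such as PTBP1, are known to repress one exon of several of these pairs, and many splicing proteins carry methylarginine placed by PRMT5 (symmetric) or by the Type I enzymes (asymmetric).

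The measure was Ψ, the share of reads, corrected for length, from the form with the exon. For an MXE event it is the share of the upstream exon of the pair in the direction of transcription, so that the downstream exon takes the rest. Reads on junctions and reads within the exon were both counted. A difference is the mean Ψ with inhibitor minus the mean Ψ of the DMSO libraries of the same table, in percentage points with its standard error (SE of the difference, n = 3 against 3). An event was called at an adjusted p under 0.05 in a quasi-binomial test with limma-moderated dispersion over all MXE or all SE events, if every library had at least 10 reads. Events listed in all 8 tables gave each library 6816095 to 9861481 reads on 8011 MXE events and 29241057 to 42336018 on 51219 SE events. Of these the 10 genes held 60767 to 127569 reads on 14 MXE events and 162840 to 345869 on 69 SE events. Libraries of a group differed more than sampling alone gives (chi-square of 1.79 to 2.83 per event), and none was a copy of another. The epithelial markers KRT8, KRT18 and EPCAM had 17, 6 and 4 events, KRT19 had 0, and PTPRC, PECAM1, COL1A1, COL1A2, DES and MYH11, markers of other cell types, had 0 events. The tables hold no expression levels, so a shift in Ψ cannot be told apart from a change in the stability of one form.

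Not every MXE event of these genes is a switch between rival exons. In the GENCODE annotation on hg19, 9 of the 63 pairs, in 7 genes, had transcripts with either exon and none with both. They were the pairs of PKM (167 bases each), TPM2 (76 each), ACTN4 (86 each, and 81 with 66), MAPK8 and MAPK9 (72 each), FYN (165 with 156) and SLC25A3 (125 or 229 with 122). In 53 pairs at least 1 annotated transcript held both exons, among them the best covered pairs of TPM1, TPM3 and ACTN1, and 8 pairs were never apart. One of these 8 was the ACTN4 pair with the most reads (180 with 147 bases). Its Ψ stayed between 51.4% and 57.1% in every library in which it was listed. Another of the 8 was a MAPK9 pair (130 with 59 bases) whose Ψ ran from 14.2% to 43.9%. In 5 of the 9 exclusive pairs the exons had equal length, and in 8 of 9 their lengths differed by 0 or a multiple of 3.

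The sequences of the PKM, TPM2 and TPM1 pairs are shown because these pairs carry the shifts described first. They were read from the hg19 (GRCh37) reference on the transcribed strand, and capitals mark the positions at which the exons of a pair differ. The PKM exons lie on the minus strand at chr15:72495363-72495529 (upstream) and chr15:72494795-72494961 (downstream), are coding in full and are 401 bases apart. They have the same base at 105 of 167 positions (62.9%).
PKM upstream (PKM1) exon: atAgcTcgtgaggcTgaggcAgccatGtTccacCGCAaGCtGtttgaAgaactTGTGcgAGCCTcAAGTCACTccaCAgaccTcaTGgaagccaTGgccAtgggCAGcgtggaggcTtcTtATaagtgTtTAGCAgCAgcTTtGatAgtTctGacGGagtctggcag
PKM downstream (PKM2) exon: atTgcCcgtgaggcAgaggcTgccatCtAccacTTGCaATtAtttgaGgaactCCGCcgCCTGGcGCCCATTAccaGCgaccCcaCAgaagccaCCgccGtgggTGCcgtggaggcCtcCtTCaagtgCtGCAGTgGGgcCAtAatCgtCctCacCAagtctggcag

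The TPM2 exons, on the minus strand at chr9:35685061-35685136 and chr9:35684729-35684804, share 40 of 76 positions (52.6%), and the TPM1 exons, on the plus strand at chr15:63353397-63353472 and chr15:63353912-63353987, share 43 of 76 (56.6%). All 4 are coding in full.
TPM2 upstream exon: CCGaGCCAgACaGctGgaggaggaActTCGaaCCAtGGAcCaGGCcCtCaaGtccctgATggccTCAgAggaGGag
TPM2 downstream exon: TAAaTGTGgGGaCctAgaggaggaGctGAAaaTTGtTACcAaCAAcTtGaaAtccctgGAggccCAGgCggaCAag
TPM1 upstream exon: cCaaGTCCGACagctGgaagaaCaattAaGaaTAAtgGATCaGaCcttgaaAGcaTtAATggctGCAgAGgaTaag
TPM1 downstream exon: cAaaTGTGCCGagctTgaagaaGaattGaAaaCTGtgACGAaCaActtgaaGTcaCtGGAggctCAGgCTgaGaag

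Among the other pairs of equal length, identity was 75.6% in ACTN4, 63.9% in MAPK9, 61.1% in MAPK8 and 52.6% in TPM3. All 17 exons of the exclusive pairs were preceded by AG and followed by GT, as were 99.9% and 98.9% of the 48885 distinct exons of all MXE events. The 100 intronic bases before each exon were searched, on the transcribed strand, for TCTT, a letter pattern found in many binding sites of PTBP1. The 17 exons have 16 windows, since both versions of the SLC25A3 exon share one, and 11 of the 16 held it, against 61.5% of the 47710 windows of all those exons. The windows before the PKM exons are shown with TCTT in capitals, since PTBP1 binding is best known there. They span chr15:72495530-72495629 and chr15:72494962-72495061.
PKM window before the PKM1 exon: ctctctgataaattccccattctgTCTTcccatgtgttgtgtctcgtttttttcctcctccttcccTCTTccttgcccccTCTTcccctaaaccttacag
PKM window before the PKM2 exon: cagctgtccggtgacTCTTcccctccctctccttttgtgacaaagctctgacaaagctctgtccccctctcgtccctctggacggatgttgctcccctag

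The window before the PKM1 exon held 3 matches, where 9.4% of all windows held 3 or more, and its last 30 bases were 76.7% pyrimidine. The window before the PKM2 exon held 1 match and was 63.3% pyrimidine over its last 30 bases, against a median of 66.7% over all exons. A match is a letter pattern only and no evidence of binding.

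In the main test exons of the 10 genes were called in every inhibitor comparison, more with GSK591 or the combination than with MS023 by count. With limma on the log2 odds of each library fewer were called, and no call with MS023 was left. Over the 8 comparisons 33 of 85 MXE events (27 pairs, in 8 genes) and 43 of 202 SE events (31 exons, in 9 genes) were called at least once, while 23 SE events never had enough reads to be tested, and FYN had no call. Of all events tested at least once, 9.24% of 49007 MXE events and 10.9% of 133887 SE events were called at least once. Of the called pairs 12, and of the called exons 12, moved by 5 points or more. By gene, 12 of 24 MXE events were called at least once in TPM1, 6 of 11 in SLC25A3, 4 of 9 in PKM, 4 of 5 in TPM2, 3 of 10 in MAPK9, 2 of 11 in ACTN4, 1 of 5 in ACTN1, 1 of 3 in TPM3 and 0 of 6 in MAPK8. Of the SE events 9 of 35 were called in TPM1, 7 of 26 in PKM, 7 of 26 in ACTN4, 4 of 16 in TPM2, 4 of 17 in ACTN1, 4 of 12 in TPM3, 3 of 26 in MAPK9, 3 of 17 in MAPK8 and 2 of 15 in SLC25A3. FYN, with 1 MXE and 12 SE events, had 11 SE events that were never tested.

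With GSK591 for 2 days, 10 of 44 tested MXE events of these genes were called (22.7%, where 1.72% of all MXE events tested were) and 20 of 113 SE events (17.7%, where 4.49% of all were). At 4 days there were 13 of 39 MXE events (33.3%; 7.05% of all) and 20 of 115 SE events (17.4%; 6.97% of all), and at 7 days 13 of 33 (39.4%; 5.32% of all) and 20 of 110 (18.2%; 4.93% of all). With MS023 for 2 days, 2 of 42 MXE events (4.76%; 0.933% of all) and 6 of 117 SE events (5.13%; 1.65% of all) were called, at 4 days 4 of 29 (13.8%; 1.37% of all) and 9 of 100 (9.0%; 2.07% of all), and at 7 days 6 of 25 (24.0%; 2.53% of all) and 6 of 94 (6.38%; 2.62% of all). The combination gave 20 of 47 MXE events (42.6%; 7.76% of all) and 25 of 101 SE events (24.8%; 9.14% of all) at 2 days, and 13 of 39 (33.3%; 9.38% of all) and 30 of 102 (29.4%; 10.4% of all) at 4 days. TPM1 alone held 17 of the 47 tested and 10 of the 20 called MXE events of the combination at 2 days. The 47 events cover 36 pairs and the 20 calls 16 pairs. Events that have an exon in common share reads and are not independent.

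These shares lie above the background, but the events of these genes also had more reads. With GSK591 for 2 days the median tested MXE event had 2770 reads per library in these genes and 284 over all, and the median SE event 1661 and 210. The median absolute difference was smaller in these genes than over all events, 1.1 against 2.14 points for MXE and 0.332 against 0.799 points for SE. The part of read depth in the shares was not tested.

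**Figure D1:**
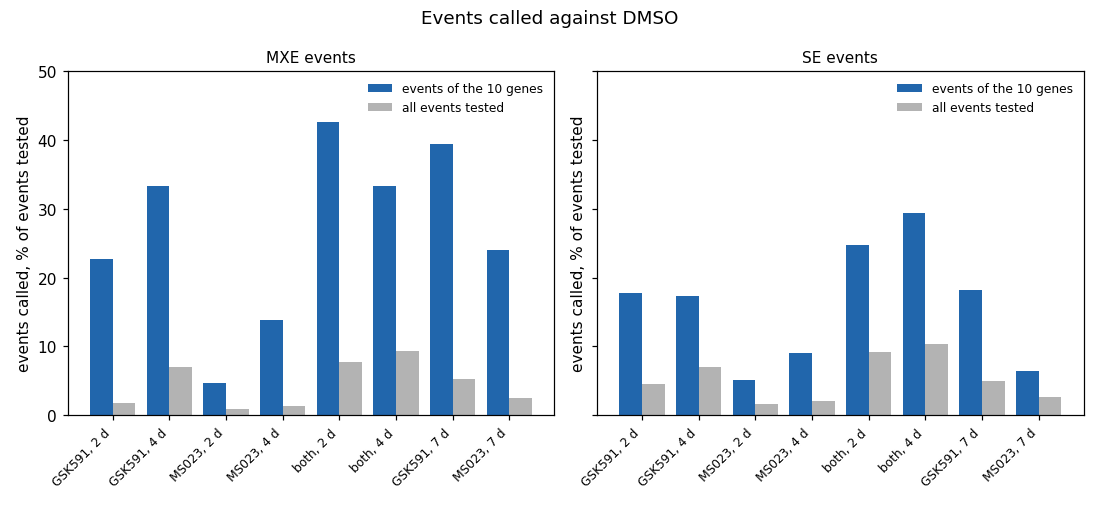
Percentage of tested events called against DMSO in each of the 8 inhibitor comparisons, for events of the 10 genes (blue) and for all events (grey), MXE events on the left and SE events on the right; d, days; both, GSK591 plus MS023. The blue bar is the taller one in every comparison, from 4.76% against 0.933% (MS023, 2 days) to 42.6% against 7.76% (both, 2 days) for MXE events. In the last of these TPM1 alone held 10 of the 20 called MXE events.

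PKM switched little in size and in the same direction with every inhibitor. The PKM1 exon was the rare one throughout, and its share of the pair, measured on 26375 to 62170 reads per library, was 0.694%, 0.835% and 0.621% in the DMSO libraries of 4 days. At 2 days it was 2.01%, 2.18% and 1.75% with GSK591 and 2.13%, 2.16% and 2.06% with MS023. At 4 days it was 1.98%, 1.90% and 1.78% with GSK591 and 1.97%, 1.93% and 2.02% with MS023. All 12 libraries lay above all 3 controls, and the 2 inhibitors gave overlapping values.

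With both inhibitors the share was 4.32%, 4.42% and 4.20% at 2 days and 5.82%, 5.45% and 5.15% at 4 days, above every library with 1 inhibitor. The difference from DMSO was 3.59 ± 0.0901 points (SE of the difference) at 2 days and 4.76 ± 0.204 points at 4 days (adjusted p = 5.61e-23 and 1.1e-23). With single inhibitors it was 1.26 ± 0.14 and 1.17 ± 0.0858 points for GSK591 and 1.40 ± 0.0692 and 1.26 ± 0.0683 points for MS023 at 2 and 4 days (adjusted p = 9.2e-06, 3.02e-14, 1.4e-12 and 7.15e-13). At 7 days the DMSO libraries had 0.914%, 0.919% and 0.70%, those with GSK591 2.05%, 1.5% and 2.03% and those with MS023 1.58%, 1.52% and 1.47%. The differences were 1.01 ± 0.193 and 0.68 ± 0.0793 points (adjusted p = 9.97e-07 and 1.75e-06).

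All 8 calls against DMSO were kept when any 1 library was left out. With limma on the log2 odds of each library, 3 of the 8 stayed under 0.05 (GSK591 for 4 days, 0.0264, and the combination, 0.00534 and 0.00231), and the others had an adjusted p between 0.0514 and 0.149. Set against each other, GSK591 and MS023 differed by -0.14 ± 0.129 points at 2 days and -0.08 ± 0.0643 points at 4 days (adjusted p = 0.595 and 0.556). At 7 days the difference of 0.34 ± 0.182 points was called (adjusted p = 0.0382), but the libraries overlapped and the call was lost with the dispersion of the pair itself (adjusted p = 0.322). The combination exceeded GSK591 alone by 2.33 ± 0.141 points at 2 days and 3.59 ± 0.203 points at 4 days, and MS023 alone by 2.19 ± 0.0708 and 3.50 ± 0.196 points, all 4 called (highest adjusted p = 9.22e-08). The PKM1 exon took at most 5.82% of the pair in any library.

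**Figure D2:**
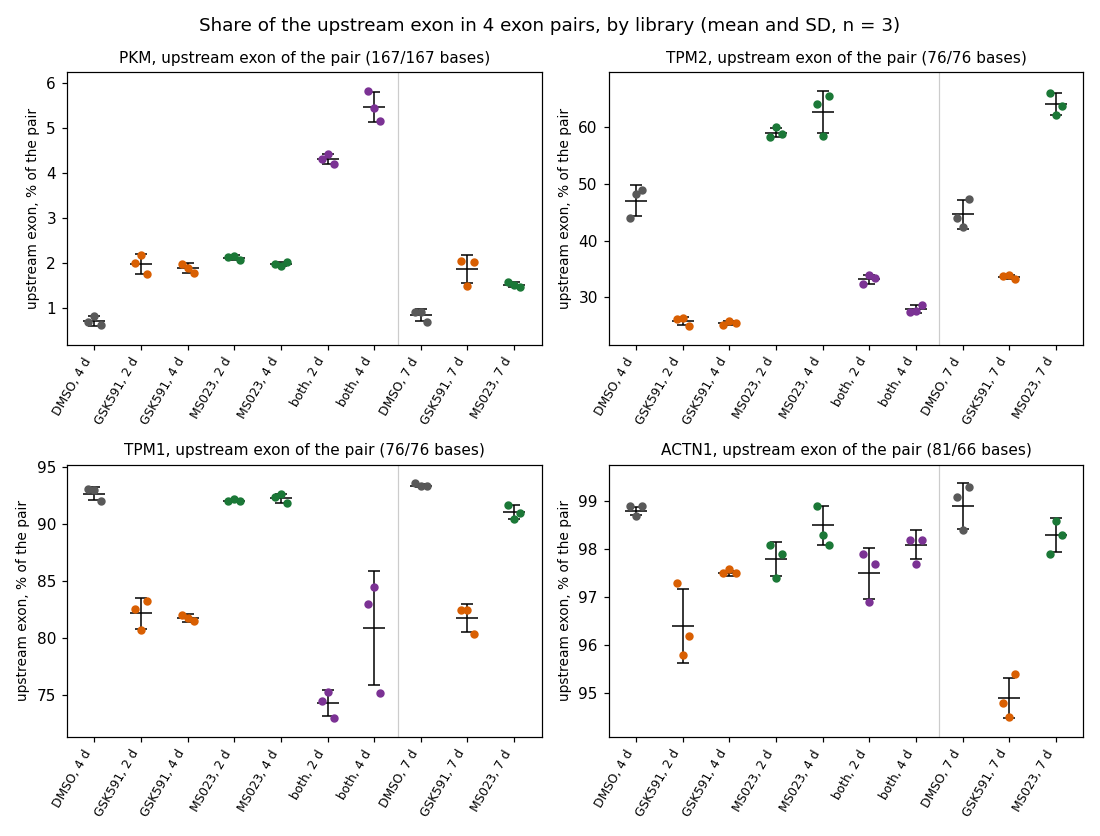
Share of the upstream exon of the pair, in percent, in the 30 libraries for PKM, TPM2, TPM1 and ACTN1; points are libraries coloured by treatment (grey DMSO, orange GSK591, green MS023, purple both), dashes and bars the mean ± SD (n = 3), the vertical line parts the 7-day groups, and the vertical axes do not start at 0 and differ between panels. In PKM the combination reaches 5.47% at 4 days from 0.717% with DMSO, and in TPM2 the orange and green points lie on opposite sides of DMSO.

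TPM2, a tropomyosin that winds along actin filaments, was the pair in which the inhibitors went opposite ways. The upstream exon took 43.9%, 48.2% and 48.9% of the pair with DMSO for 4 days, on 2944 to 12549 reads per library over all groups. GSK591 lowered it to 26.1%, 26.3% and 25.0% at 2 days and 25.2%, 25.9% and 25.4% at 4 days, and with MS023 it rose to 58.3%, 59.9% and 58.7% and to 64.0%, 58.4% and 65.5%. No library of either inhibitor overlapped the controls.

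The differences from DMSO were -21.21 ± 1.62 and -21.53 ± 1.58 points with GSK591 (adjusted p = 4.46e-07 and 3.53e-17) and 11.95 ± 1.64 and 15.63 ± 2.66 points with MS023 (adjusted p = 2.54e-07 and 2.38e-08). The combination gave 32.3%, 33.9% and 33.4% at 2 days and 27.4%, 27.6% and 28.7% at 4 days, on the side of GSK591, with differences of -13.81 ± 1.64 and -19.14 ± 1.62 points (adjusted p = 3.31e-11 and 2.98e-14). At 7 days the controls had 44.0%, 42.4% and 47.3%, GSK591 33.8%, 33.9% and 33.2% and MS023 66.0%, 62.1% and 63.7%. The differences were -10.93 ± 1.47 and 19.40 ± 1.84 points (adjusted p = 1.14e-08 and 9.86e-11).

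The 2 inhibitors differed directly by -33.16 ± 0.659, -37.15 ± 2.16 and -30.33 ± 1.15 points at 2, 4 and 7 days, called in the main test and with limma on log2 odds (adjusted p = 0.0105, 0.00554 and 0.00776 with limma). Against DMSO limma kept GSK591 at 4 days and the combination at both times (adjusted p = 0.0197, 0.0482 and 0.0145) and gave 0.0549 to 0.234 for the other 5. The combination lay 7.40 ± 0.638 points above GSK591 alone at 2 days (adjusted p = 6.95e-05) and 2.39 ± 0.465 points above it at 4 days (adjusted p = 0.0743). The GSK591 difference was smaller at 7 than at 4 days, by 10.6 ± 2.16 points (interaction, adjusted p = 0.000131, and 0.177 with limma), while the controls of the 2 times differed by -2.45 ± 2.14 points (adjusted p = 0.207).

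The same exons were listed as SE events with the other exon as a flank, which draw on many of the same reads and so are no independent measure. At 4 days the mean inclusion of the upstream exon was 26.4% in DMSO, 11.5% in GSK591 and 41.1% in MS023 libraries, and that of the downstream exon was 29.1%, 48.7% and 19.4%. Both were called in all 8 inhibitor comparisons. With flanks outside the pair the values were others. Inclusion of the downstream exon (96737 reads over all libraries, against 76034 with the other exon as flank) was 99.7% with DMSO, 98.3% with GSK591 (adjusted p = 3.07e-06) and 99.0% with MS023 for 4 days (adjusted p = 0.169). With GSK591 its Ψ thus fell in this event and rose in the one with the other exon as flank. The upstream exon (64340 reads) went from 99.7% to 95.2% with GSK591 and 89.9% with both for 4 days, a difference of -9.81 points for both, and was at 99.4% with MS023 (adjusted p = 0.664). Reads within an exon count towards its inclusion in every such event, whichever exons flank it. Each Ψ is therefore relative to its own flanks and is no level of the exon over all transcripts. A TPM2 event that sets the downstream 76-base exon against the following 63-base exon moved between the controls themselves, from 49.6 ± 2.16% at 4 days to 30.3 ± 1.23% at 7 days (SD, n = 3; adjusted p = 5.32e-09), so its levels cannot be set side by side across the times. In the annotation 4 transcripts held both exons of this event and 0 the 76-base exon alone, so they are not rivals there.

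In TPM1, another tropomyosin, the corresponding 76-base pair moved with GSK591 and with the combination. The upstream exon took 93.1%, 93.0% and 92.1% with DMSO for 4 days, on 932 to 6255 reads per library over all groups, and 82.6%, 80.7% and 83.3% with GSK591 at 2 days and 82.1%, 81.8% and 81.5% at 4 days. With MS023 the values were 92.1%, 92.2% and 92.1%, and 92.4%, 92.7% and 91.9%, overlapping the controls. The differences were -10.53 ± 0.835 and -10.91 ± 0.376 points with GSK591 (adjusted p = 3.03e-06 and 1.46e-13) and -0.56 ± 0.327 and -0.37 ± 0.398 points with MS023 (adjusted p = 0.777 and 0.882).

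The combination gave 74.5%, 75.3% and 73.0% at 2 days and 83.0%, 84.5% and 75.2% at 4 days, where library c lay below the others. The differences were -18.43 ± 0.734 and -11.81 ± 2.89 points (adjusted p = 1.76e-16 and 5.45e-09). At 7 days the difference was -11.64 ± 0.693 points with GSK591 (adjusted p = 4.14e-10) and -2.39 ± 0.364 points with MS023 (adjusted p = 0.0287). The MS023 call was lost when DMSO library a or b or MS023 library b or c was left out (adjusted p = 0.0942 to 0.148). GSK591 minus MS023 was -9.97, -10.54 and -9.25 points at the 3 times, all called. The combination minus GSK591 was -7.90 ± 1.01 points at 2 days (adjusted p = 0.00212) and -0.90 ± 2.88 points at 4 days (adjusted p = 0.895).

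Single-exon events of TPM1 rest on partly the same reads. Inclusion of the upstream exon, with the downstream exon as flank, had means of 83.4% with DMSO, 62.9% with GSK591 and 51.0% with both at 2 days, and inclusion of the downstream exon 4.19%, 8.91% and 13.0%. With other flanks, in the event of the upstream exon with the most reads (69036 against 31405), the means were 100% with DMSO and 99.8% with both at 2 days (adjusted p = 0.134). For the downstream exon with other flanks (10988 reads against 57805) they were 100% and 99.5% (adjusted p = 0.441). In an event of only 259 reads the downstream exon went from 97.1% with DMSO to 56.8% with both at 2 days (adjusted p = 0.0275), opposite in direction. The event that sets the downstream 76-base exon against the 63-base exon after it had 4.10%, 5.38% and 5.83% of the 76-base exon with DMSO for 4 days. It rose to 11.7%, 15.4% and 13.3% with GSK591 and to 18.1%, 16.5% and 19.8% with both at 2 days, by 8.36 ± 1.18 and 13.02 ± 1.09 points (adjusted p = 0.00124 and 5.35e-09). In the annotation 20 transcripts held both exons of this event and 0 the 76-base exon alone, so they are not rivals there. The event also shares reads on the 76-base exon with the 76-base pair and is no separate switch. The pair of the 63-base and 70-base exons further downstream moved by -8.99 ± 1.5 points with the combination at 2 days (adjusted p = 0.000407) from 51.9%. Its calls for the combination at 4 days and GSK591 at 7 days were lost with the dispersion of the pair itself (adjusted p = 0.0895 and 0.163). In the annotation 28 transcripts held both exons of this pair, 2 only the 63-base exon and 3 only the 70-base exon.

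The 76-base pair of TPM3, a tropomyosin whose exons share no more of their sequence than those of TPM2, stayed at 98.9% to 100% upstream exon in all libraries. Its single call against DMSO was a difference of -0.37 ± 0.0995 points with GSK591 at 4 days (adjusted p = 0.0298), which was lost when DMSO library a or b or any GSK591 library was left out (adjusted p = 0.0524 to 0.203). GSK591 minus MS023 was called too, with -0.61 ± 0.255 points at 2 days and -0.39 ± 0.113 points at 4 days (adjusted p = 0.0214 and 0.016), and with the dispersion of the pair itself the 2-day call was lost (adjusted p = 0.104).

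The actinins cross-link actin filaments. In ACTN1 the 81-base exon (chr14:69345706-69345786) is paired with the 66-base exon (chr14:69345175-69345240), on the minus strand. The 81-base exon took 98.9%, 98.7% and 98.9% of the pair with DMSO for 4 days and 97.3%, 95.8% and 96.2% with GSK591 for 2 days. The largest of its shifts was at 7 days, from 99.1%, 98.4% and 99.3% to 94.8%, 94.5% and 95.4% with GSK591, a difference of -4.03 ± 0.364 points (adjusted p = 4.8e-06), against -0.67 ± 0.338 points with MS023 (adjusted p = 0.395). The inhibitors differed directly at 7 days by -3.36 ± 0.314 points (adjusted p = 1.97e-05). GSK591 at 2 and 4 days (-2.43 ± 0.452 and -1.32 ± 0.0595 points; adjusted p = 0.00495 and 0.00432) and the combination at 2 days (-1.35 ± 0.308 points; adjusted p = 0.0066) were called too, the last not without its library b (adjusted p = 0.0998).

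As an SE event with the 66-base exon as a flank, which shares reads with the pair, the 81-base exon of ACTN1 was included at 97.6%, 95.6% and 98.6% with DMSO and at 89.0%, 86.3% and 88.4% with GSK591 for 7 days, a difference of -9.38 ± 1.19 points (adjusted p = 2.38e-11). MS023 gave -0.99 ± 0.885 points (adjusted p = 0.668). With flanks outside the pair (62485 reads against 24966) it was 99.8% with DMSO and 99.7% with GSK591 for 7 days (adjusted p = 0.86).

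ACTN4 has 2 exclusive pairs on the plus strand of chromosome 19, both described after their values were seen, since neither had the most reads of the gene. In the pair that matches the ACTN1 one by length (81 bases, chr19:39218586-39218666, with 66 bases, chr19:39218956-39219021) the 81-base exon took 98.8% in each of the 3 DMSO libraries and moved the other way than in ACTN1. It reached 99.7%, 99.7% and 99.8% with GSK591 at 4 days, a difference of 0.95 ± 0.0313 points (adjusted p = 6.25e-09), and 99.9%, 99.8% and 99.9% with both inhibitors, a difference of 1.06 ± 0.0213 points (adjusted p = 4.9e-10). GSK591 was called at all 3 times. At 2 days the call (0.69 ± 0.118 points, adjusted p = 0.019) was lost when any DMSO library or GSK591 library c was left out (adjusted p = 0.0649 to 0.0868). MS023 gave 0.23 to 0.47 points, none called (adjusted p = 0.0603 to 0.535).

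In the ACTN4 pair of 86 bases each (chr19:39200897-39200982 and chr19:39201916-39202001) the upstream exon held 97.7% to 99.7% in all libraries. The combination lowered it from 99.1%, 99.2% and 99.3% to 98.2%, 98.0% and 97.7% at 4 days, a difference of -1.20 ± 0.164 points (adjusted p = 2e-06). The combination was also called against GSK591 alone (-1.23 ± 0.152 points; adjusted p = 4.07e-12) and MS023 alone (-0.97 ± 0.147 points; adjusted p = 1.04e-05). GSK591 for 7 days moved it up, by 0.68 ± 0.145 points (adjusted p = 0.00278), where at 4 days its difference was 0.03 ± 0.0917 points (adjusted p = 0.943).

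SLC25A3 carries phosphate into mitochondria, and its upstream exon belongs to the form of heart and muscle. Against the 122-base downstream exon (chr12:98989505-98989626) the tables list the upstream exon in a 125-base and a 229-base version with the same start (chr12:98989211), and the 125-base version was added after its values were seen. The 125-base version is in 3 annotated transcripts and coding in full, the 229-base version in 1 and coding in part. They end 169 and 65 bases before the downstream exon. The longer version thus includes bases that are intron for the shorter one, and reads within them count for it. The 2 events share reads and are no separate measures. The 229-base version took 0.433%, 0.547% and 0.397% with DMSO for 4 days. It took 1.41%, 1.71% and 1.45% with GSK591 at 2 days and 1.71%, 1.44% and 1.25% at 4 days, with differences of 1.06 ± 0.103 and 1.01 ± 0.141 points (adjusted p = 0.000232 and 8e-08). MS023 gave 0.07 ± 0.101 and -0.06 ± 0.056 points (adjusted p = 0.851 and 0.819), and the combination 0.74 ± 0.107 and 0.91 ± 0.0862 points (adjusted p = 3.35e-06 and 1.1e-07). At 7 days neither inhibitor was called against DMSO, with 0.25 ± 0.064 points for GSK591 (adjusted p = 0.0904), though GSK591 exceeded MS023 by 0.39 ± 0.067 points (adjusted p = 0.00136). The 125-base version gave the same calls with smaller differences, from 0.33 to 0.57 points. Its call for GSK591 at 4 days was lost with its own dispersion (adjusted p = 0.0987) and without GSK591 library a (adjusted p = 0.094).

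The exclusive pairs of the kinases had no call against DMSO. MAPK8 and MAPK9 encode the stress kinases JNK1 and JNK2, whose 72-base exons lie in the kinase domain, at chr10:49632131-49632202 and chr10:49632557-49632628 in MAPK8 and, on the minus strand, at chr5:179674855-179674926 and chr5:179674439-179674510 in MAPK9. In MAPK8 the upstream exon took 2.36%, 2.94% and 1.09% with DMSO for 4 days on 77 to 184 reads per library over all groups. With both inhibitors for 4 days it took 0 of the 380 reads of the 3 libraries, which allows a share of up to 0.789% (3 reads over the group, counting error only). That difference of -2.13 ± 0.548 points had an adjusted p of 0.15 in the main test and of 0.0249 with limma on log2 odds. In MAPK9 the upstream exon took 1.37% at most in any library, and with both inhibitors it took 0 of 878 reads at 2 days and 0 of 859 at 4 days, which allows up to 0.342% and 0.349%. FYN, a kinase of the Src family, had 1 to 66 reads per library on its pair (chr6:112021307-112021471 and chr6:112020718-112020873, minus strand) and Ψ from 8.85% to 100%. Against DMSO it could be tested at 7 days only, with 18.37 ± 13.8 points for GSK591 and 11.17 ± 17.9 points for MS023 (adjusted p = 0.259 and 0.799), so that no shift was detectable at this depth.

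**Figure D3:**
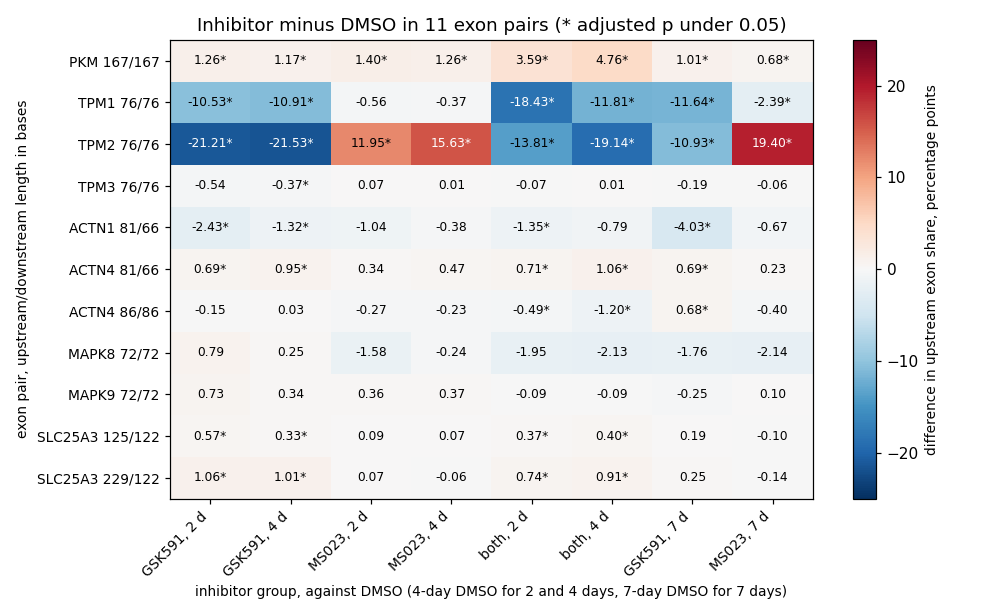
Difference in the share of the upstream exon, inhibitor minus DMSO, in percentage points, for 11 pairs (rows, with upstream and downstream exon length in bases) and 8 inhibitor groups (columns; d, days; both, GSK591 plus MS023); colour and number give the difference, and an asterisk marks an adjusted p under 0.05. PKM is positive and TPM2 is called in all 8 columns, TPM2 with a negative sign for GSK591 and both and a positive one for MS023, and MAPK8 and MAPK9 hold no asterisk.

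Larger shifts in points came from single exons with fewer reads. In MAPK9 a 93-base exon upstream of the coding part (chr5:179713975-179714067, minus strand, not coding) was included at 42.0%, 42.5% and 42.9% with DMSO for 4 days, on 132 to 350 reads per library over all groups. GSK591 gave 21.6%, 28.8% and 31.7% at 2 days and 22.1%, 25.4% and 17.1% at 4 days. MS023 gave 38.1%, 38.0% and 30.1% and 33.9%, 24.9% and 32.4%, and both together 16.6%, 21.9% and 26.2% and 9.91%, 9.89% and 11%. All 18 libraries lay below the 3 controls, those with both inhibitors for 4 days lowest.

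The MAPK9 differences were -15.10 ± 3.01 and -20.93 ± 2.43 points with GSK591, -7.10 ± 2.67 and -12.09 ± 2.81 points with MS023 and -20.89 ± 2.79 and -32.22 ± 0.447 points with both, called except MS023 at 2 days (adjusted p = 0.465). The MS023 call at 4 days (adjusted p = 0.0168) was lost when any DMSO library or MS023 library b was left out (adjusted p = 0.0558 to 0.336). The GSK591 call at 2 days (adjusted p = 0.00106) was lost without its library a (adjusted p = 0.0523). The combination minus GSK591 was -11.30 ± 2.44 points at 4 days (adjusted p = 0.00365). The controls differed between the times. At 7 days they had 25.5%, 29.3% and 35.5%, a difference of -12.38 ± 2.91 points from 4 days (adjusted p = 0.0181). The 7-day difference of -12.18 ± 4.59 points with GSK591 was called in the main test (adjusted p = 0.000265), not with the dispersion of the exon itself (adjusted p = 0.117) and not without GSK591 library a (adjusted p = 0.081). With other flanks, in an event of 1399 reads, both inhibitors gave -28.42 and -30.37 points (adjusted p = 0.00186 and 0.0112) and GSK591 -22.38, -12.78 and -27.33 points at 2, 4 and 7 days (adjusted p = 0.0488, 0.293 and 0.0273). In another event, of 1082 reads, inclusion was 96.0% with DMSO for 4 days. GSK591 gave -4.72, -5.23 and -21.56 points there (adjusted p = 0.806, 0.654 and 0.055) and MS023 -0.82, -1.49 and 0.90 points, none called.

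In its SE event with the most reads, the 241-base exon of MAPK9 (chr5:179706796-179707036) moved up where both inhibitors were given. It went from 12.5%, 13.1% and 12.4% to 14.6%, 21.6% and 25.1% at 2 days and 24.3%, 14.1% and 23.9% at 4 days, by 7.79 ± 3.12 and 8.11 ± 3.32 points (adjusted p = 0.0176 and 0.00314). With its own dispersion the first was lost (adjusted p = 0.0623) and the second kept (0.0316). The first was also lost without DMSO library a or c or combination library b or c, and the second without combination library a or c (adjusted p = 0.0512 to 0.239). GSK591 and MS023 alone gave between -4.57 and 0.55 points, none called. The combination minus each single inhibitor was called in the main test at both times (7.56 to 10.56 points), and with its own dispersion against GSK591 at 2 days alone (adjusted p = 0.0375). In the MAPK9 MXE event with the most reads (11798), the same exon is set against the 130-base exon. Its mean share there was 8.57% with DMSO for 4 days and 11.3% and 10.7% with both inhibitors at 2 and 4 days. This event was called in 0 of 8 inhibitor comparisons. With other flanks, in an event of 740 reads, inclusion was 100% with DMSO and 98.5% and 97.1% with both (adjusted p = 0.628 and 0.545 in the main test).

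Of the MAPK9 pairs whose exons the annotation also joins in 1 transcript, 3 further MXE events passed the test with 5 points or more, all with the 130-base exon (chr5:179696280-179696409) as a partner. Against it the 169-base exon upstream (chr5:179707440-179707608) took 36.5%, 32.8% and 43.9% with DMSO and 17.0%, 22.2% and 16.3% with both inhibitors for 4 days, a difference of -19.27 ± 3.76 points (adjusted p = 0.000213). Its calls for both at 2 days and for GSK591 at 7 days (-12.33 ± 4.56 and -12.42 ± 2.26 points) were lost when single libraries were left out (adjusted p = 0.0673 to 0.278). Against the 59-base exon downstream (chr5:179691781-179691839), a pair that no annotated transcript takes apart, the 130-base exon rose from 18.4%, 23.7% and 15.4% to 35.2%, 29.6% and 42.2% with both for 4 days, by 16.47 ± 4.38 points (adjusted p = 0.0265), and the call was lost when DMSO library a or c or combination library a or c was left out (adjusted p = 0.0665 to 0.138). The controls of this event had 37.4%, 43.9% and 43.5% at 7 days, 22.38 ± 3.23 points above those of 4 days (adjusted p = 0.00569). The 93-base exon, set against the 130-base exon, fell from 26.3%, 29.6% and 31.0% to 12%, 13.8% and 15.8% with GSK591 for 7 days, a difference of -15.09 ± 1.78 points (adjusted p = 0.00711).

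MAPK8 has a 194-base exon (chr10:49516138-49516331) and a 69-base exon (chr10:49533940-49534008), neighbours on the plus strand and not coding. With DMSO for 4 days the 194-base exon was included at 56.6%, 69.5% and 66.9% and the 69-base exon at 42.8%, 44.3% and 43.0%, on 32 to 137 and 30 to 106 reads per library over all groups. Both inhibitors together moved them in opposite directions. The 194-base exon reached 90.9%, 100% and 90.4% at 2 days and 97.9%, 96.4% and 91.8% at 4 days, and the 69-base exon fell to 24.9%, 10.7% and 22.0% and to 18.6%, 10.0% and 2.83%. The differences were 29.45 ± 5.02 and 31.04 ± 4.35 points for the first (adjusted p = 0.000126 and 4.68e-06) and -24.19 ± 4.34 and -32.90 ± 4.57 points for the second (adjusted p = 0.00111 and 2.08e-06). The 2-day call of the 69-base exon was lost without combination library b (adjusted p = 0.0748). In its other event, of 1728 reads, both inhibitors gave -28.50 and -35.28 points (adjusted p = 0.00121 and 2.95e-06) and GSK591 for 2 days gave -22.58 points (adjusted p = 0.0163). Each exon is a flank of the other in these events, so the 2 measures are linked. With single inhibitors the 194-base exon was called for GSK591 at 4 days (22.07 ± 4.15 points, adjusted p = 0.0211), which was lost without DMSO library a or any GSK591 library (adjusted p = 0.0536 to 0.155). It was also called for MS023 at 7 days (16.03 ± 12.6 points, adjusted p = 0.0408), where the libraries overlapped and the exon's own dispersion gave an adjusted p of 0.678. Without DMSO library b, or MS023 library a or b, that call was lost too (adjusted p = 0.108 to 0.731).

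**Figure D4:**
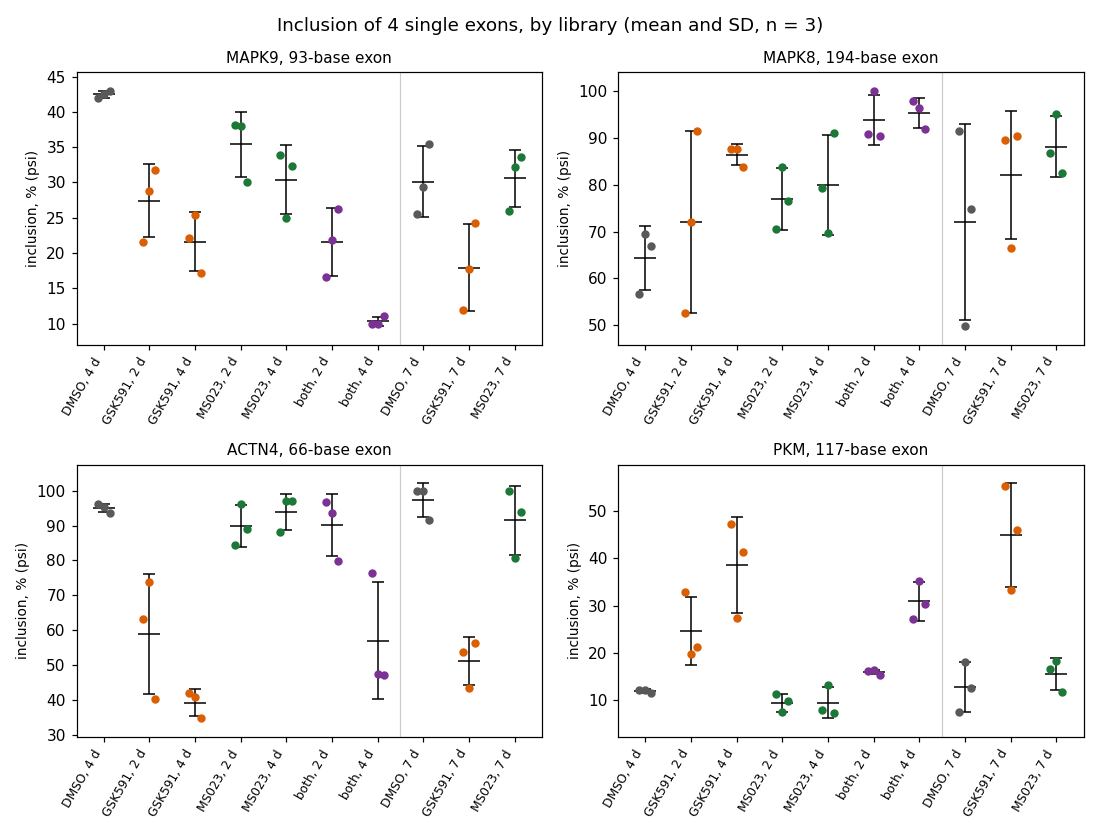
Inclusion (Ψ, percent) of 4 single exons in the 30 libraries, with points, colours, means and SD bars as in the plot of the exon pairs by library; vertical axes differ between panels and do not start at 0. The 93-base exon of MAPK9 falls from 42.5% to 10.3% with both inhibitors for 4 days, the 194-base exon of MAPK8 rises from 64.3% to 95.4%, and the exons of ACTN4 and PKM shift with GSK591 (to 39.2% and 38.6% at 4 days).

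The PKM gene also has a 117-base coding exon near its start (chr15:72513509-72513625). In the event with the most reads in the middle range of Ψ it was included at 12.1%, 12.1% and 11.4% with DMSO for 4 days and at 32.8%, 19.7% and 21.3%, and 47.3%, 27.4% and 41.3%, with GSK591 for 2 and 4 days, on 36 to 295 reads per library over all groups. The differences were 12.77 ± 4.13 and 26.79 ± 5.90 points (adjusted p = 0.012 and 5.16e-09), with 32.17 ± 7.06 points at 7 days (adjusted p = 1.04e-07). The 2-day call was lost without GSK591 library a (adjusted p = 0.156). The combination gave 4.08 ± 0.369 points at 2 days (adjusted p = 0.441) and 19.05 ± 2.36 points at 4 days (adjusted p = 2.49e-05). MS023 gave -2.43 to 2.81 points, none called, and GSK591 differed from it directly at all 3 times by 15.20 to 29.35 points. Other flanks gave other values for this exon. In the event with 361533 reads over all libraries, against 3755 in the event described, inclusion was 0.253% with DMSO and 0.30% with GSK591 for 4 days (adjusted p = 0.609). In another, of 1642 reads, it was 65.5% with DMSO, 54.8% with GSK591 (adjusted p = 0.486) and 23.4% with MS023 (adjusted p = 6.06e-06). There the combination gave -28.92 and -29.98 points at 2 and 4 days (adjusted p = 0.00903 and 0.00163), opposite in direction to the event described. In an event of 549 reads inclusion went from 92.6% to 44.5% with GSK591 for 7 days, a difference of -48.07 points (adjusted p = 0.00018). The direction for this exon thus depended on the flanks.

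A 66-base exon of ACTN4, the downstream exon of the 81 and 66 pair, showed the largest difference of the described events, with a size that depended on the flanks. With the 147-base exon before the pair as left flank, on 16 to 122 reads per library, it was included at 96.1%, 95.3% and 93.7% with DMSO for 4 days and at 42.0%, 40.9% and 34.7% with GSK591, a difference of -55.85 ± 2.37 points (adjusted p = 9.74e-15). With GSK591 for 2 days the difference was -36.05 ± 9.94 points and for 7 days -46.15 ± 4.86 points (adjusted p = 4.27e-07 and 0.000187), and with MS023 -5.70 to -1.07 points, none called. With both inhibitors it was included at 96.8%, 93.6% and 79.9% at 2 days, a difference of -4.94 ± 5.22 points (adjusted p = 0.633), and at 76.4%, 47.4% and 47.1% at 4 days, a difference of -38.09 ± 9.73 points (adjusted p = 0.000141). The combination minus GSK591 at 2 days, 31.11 ± 11.2 points, was called in the main test (adjusted p = 0.011) and not with the dispersion of the exon itself (adjusted p = 0.265). With the 81-base exon as left flank, on 149242 reads over all libraries against 1471, inclusion was 0.515% with DMSO and 0.0914% with GSK591 for 4 days, a difference of -0.42 points (adjusted p = 8.03e-09). The direction was the same with both flanks, and the large difference rests on the event with few reads.

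Across the named pairs and exons GSK591 and MS023 were compared directly within each day. At 2 days 9 of 31 MXE events (29.0%; 3.57% of all) and 17 of 97 SE events (17.5%; 7.89% of all) of the 10 genes differed between the inhibitors. There were 8 of 24 (33.3%; 10.8% of all) and 20 of 84 (23.8%; 11.4% of all) at 4 days, and 11 of 19 (57.9%; 7.87% of all) and 26 of 88 (29.5%; 9.04% of all) at 7 days. TPM2, TPM1 and SLC25A3 were called at all 3 times on the pairs above, TPM3 at 2 and 4 days, the 81 and 66 pair of ACTN4 at 4 and 7 days, and PKM, ACTN1 and the 86-base pair of ACTN4 at 7 days. MAPK8 and MAPK9 had no such call on their 72-base pairs (adjusted p = 0.465 to 1).

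Comparisons of the combination with single inhibitors were added after the values had been seen. Against GSK591 alone, 3 of 35 MXE events (8.57%; 0.737% of all) and 12 of 91 SE events (13.2%; 3.16% of all) were called at 2 days, and 4 of 26 (15.4%; 5.20% of all) and 13 of 87 (14.9%; 4.03% of all) at 4 days. Against MS023 alone, 12 of 32 (37.5%; 7.75% of all) and 19 of 88 (21.6%; 9.15% of all) were called at 2 days, and 8 of 23 (34.8%; 11.1% of all) and 23 of 80 (28.8%; 11.6% of all) at 4 days. The PKM pair was called in all 4 of these comparisons.

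Between the controls, 8 of 33 MXE events of the 10 genes (24.2%; 22.0% of all) and 3 of 105 SE events (2.86%; 1.32% of all) differed from 4 to 7 days, so the MXE share of these genes is near the background, and 7-day values were compared with 7-day DMSO only. Why MXE events differed more often than SE events here was not tested. The 7-day comparisons are named by another scheme than those of 2 and 4 days, and no label names a batch. If the 7-day libraries were handled apart, days and handling cannot be told apart, also where effects at 7 and 4 days are compared. The effect of GSK591 differed between 7 and 4 days in 2 of 20 MXE events (10.0%; 1.80% of all) and 3 of 83 SE events (3.61%; 1.53% of all), all in TPM2 and ACTN4. For MS023 0 of 15 MXE events (0.142% of all) and 0 of 72 SE events (0.0935% of all) were called in the main test and 0 with limma on log2 odds, and 3 and 13 had an unadjusted p under 0.05 by the quasi-binomial test, which pools its dispersion over all events. The share of all events under that unadjusted p is not given, so these 2 counts have no background.

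The events whose mean Ψ over the 10 groups was most like that of the PKM pair, of 7185 MXE events of other genes tested in all 8 comparisons, were in C11orf80 (Pearson r = 0.965), POMT1 (0.960) and COMMD4 (0.959). Their group means ran from 20.9% to 70.3%, from 3.66% to 48.5% and from 1.31% to 15.4%. These r values describe 10 group means of shared libraries and were picked as the highest of many.

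Among 18 genes of proteins that bind RNA near such exons, 15 had a tested SE event, and 16 of 151 SE events were called with GSK591 for 2 days (10.6%; 4.49% of all), 24 of 150 (16%; 6.97% of all) for 4 days and 11 of 139 (7.91%; 4.93% of all) for 7 days. With MS023 5 of 146 (3.42%; 1.65% of all), 10 of 152 (6.58%; 2.07% of all) and 5 of 140 (3.57%; 2.62% of all) were called, and with both 28 of 160 (17.5%; 9.14% of all) and 34 of 161 (21.1%; 10.4% of all). Their MXE events were called at most 3 times of 38 (7.89%; both, 4 days), where 9.38% of all were. By gene, the largest called difference was -45.72 points in MBNL1, 50.14 points in RBM4 and -28.12 points in MBNL2 (both inhibitors, 4 days). It was 26.16 points in TIA1 (MS023, 7 days) and -21.92 points in CELF1 (MS023, 4 days). In PTBP1 it was -21.19 points, in an MXE event (both, 2 days), and in HNRNPA2B1 20.92 points (MS023, 7 days). These genes were picked after their values were seen. Whether splicing of these genes moves the exons described above was not tested.

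In 20 other genes known for mutually exclusive exons, 5 of 68 MXE events were called with GSK591 for 2 days (7.35%; 1.72% of all), 9 of 58 (15.5%; 7.05% of all) for 4 days and 10 of 42 (23.8%; 5.32% of all) for 7 days. With MS023 there were 4 of 51 (7.84%; 0.933% of all), 2 of 56 (3.57%; 1.37% of all) and 5 of 56 (8.93%; 2.53% of all), and with both 12 of 52 (23.1%; 7.76% of all) and 14 of 57 (24.6%; 9.38% of all) for 2 and 4 days. Their SE events were called in 8.67% to 13.6% of cases with GSK591 (4.49% to 6.97% of all), 5.96% to 9.72% with MS023 (1.65% to 2.62% of all) and 16.7% and 23.3% with both (9.14% and 10.4% of all). The shares of the 10 genes were higher than these for MXE events in 7 of the 8 comparisons, the exception being MS023 for 2 days (4.76% against 7.84%). For SE events they were higher in 5 of 8 and lower in all 3 with MS023 (5.13% against 5.96%, 9.0% against 9.72% and 6.38% against 8.44%). The difference between the lists was not tested.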

How the data were processed

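Poly(A) RNA of A549 cells was sequenced in 30 libraries, and 8 deposited tables of splicing events, 1 per inhibitor comparison, were used. Per the labels, the authors trimmed reads with Trim Galore 0.6.5 and aligned them to hg19 with STAR 2.4.2a. Their methods name rMATS for the events, which counts reads on junctions and in exons. The counts, effective lengths and coordinates were used as deposited, while the deposited inclusion levels served as a check of Ψ (largest difference 0.0005) and the authors' p-values and FDR, their own comparison, were not used. The tables name no replicate numbers.

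Ψ was the inclusion count per effective length over that of both forms. Counts of each event were fitted with a quasi-binomial model in R 4.3.3, with the dispersion moderated by squeezeVar of limma 3.58.1 (prior from events whose rarer form had at least 10 reads, a choice made after the data were opened) and held at 1 or above. Only events with at least 10 reads in every library were tested, p-values were adjusted by Benjamini-Hochberg within event type and comparison over all events, and calls were made at 0.05. The 10 genes, the lists and the described events were chosen with earlier results of these data known. Named were, per gene, the MXE and SE events with the most reads (SE with a mean Ψ of 5% to 95%) and events called with a difference of at least 5 points, at most 5 per gene, with the best covered event standing for an exon or pair. Remaining pairs that the annotation gives as exclusive were added afterwards.

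Alternatives were limma on log2 odds (0.5 reads added), minimums of 20 and 1 reads, adjustment over both event types, and each library left out. Chosen after seeing the data were a dispersion prior as a trend on depth, a prior from all events, the dispersion of the event itself where larger, and the comparisons of the combination with single inhibitors. Scripts were tested on simulated data. Exon sequences came from GRCh37, and 66 samples of other assays were not analysed here.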

Additional observations from a re-analysis of the deposited data

Results flagged for a closer look

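In 5 events the effect of GSK591 differed between 7 and 4 days by the interaction test (quasi-binomial model with limma-moderated dispersion). In the TPM2 pair of 76-base exons the difference from DMSO was -21.53 points at 4 days and -10.93 points at 7 days, an interaction of 10.6 points (adjusted p = 0.000131). The same shift was seen in the SE events of this pair, which share its reads: inclusion of the downstream exon differed by 19.58 and 9.25 points, an interaction of -10.32 points, and that of the upstream exon by -14.92 and -8.69 points, an interaction of 6.22 points. Inclusion of the downstream exon with DMSO was itself 29.1% at 4 days and 35.7% at 7 days.

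In ACTN4 the pair of 86-base exons differed by 0.03 points at 4 days and 0.68 points at 7 days, an interaction of 0.65 points (adjusted p = 0.0377, and 0.066 with the dispersion of the pair itself), and inclusion of its upstream exon as an SE event by -0.12 and 1.28 points, an interaction of 1.4 points (adjusted p = 0.0332). With limma on log2 odds none of the 5 events was called.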

How the results depend on the processing

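Counts of called events of the 10 genes, MXE and SE together, depended most on the test. With limma on log2 odds, which gives a library of few reads the weight of one with many, 1 event was called instead of 30 for GSK591 at 2 days, 11 of 33 at 4 days and 4 of 33 at 7 days, 18 of 45 and 19 of 43 for the combination at 2 and 4 days, and 0 in place of 8, 13 and 12 for MS023. For GSK591 against MS023 limma called 5, 11 and 20 where the main test called 26, 28 and 37. For the combination against GSK591 it called 0 and 1 (main test 15 and 17), against MS023 8 and 13 (main test 31 and 31), between the controls 3 (main test 11) and for the change of the GSK591 effect 0 (main test 5). A dispersion prior from all events gave 13 and 23 calls for MS023 at 2 and 4 days, 11, 12 and 13 for GSK591 against MS023, 2 and 3 for the combination against GSK591, 15 and 15 for the combination against MS023, and 6 between the controls. The dispersion of each event where larger left 20 calls for the combination against MS023 at 2 days. The cause of these changes was not tested. The counts under these settings are given without the share of all events called under the same setting. They do not show whether the shares of the 10 genes stay above the background.

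Leaving out each library gave 10 to 15 calls for the combination against GSK591 at 4 days, 7 to 13 between the controls, 3 to 6 for the change of the GSK591 effect and 0 to 2 for that of MS023. Read minimums of 20 and 1 and adjustment over both event types kept each count within 1.5 times. Of 110 calls of described events against DMSO, limma kept 27, the minimum of 20 reads 108, the dispersion of the event itself 103, and every library left out 87. No difference of these events changed sign when lengths were not corrected, counts were summed within groups or a library was left out, and without length correction 37 of 225 moved by more than the spread between libraries.

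No paired analysis was possible because the columns carry no replicate numbers. With 3 libraries a group and p-values that borrow spread from all events, small differences of deep events such as PKM, ACTN4 and SLC25A3 rest on that borrowed spread. Depth limits FYN, the 72-base pairs of MAPK8 and MAPK9 and the single exons under 100 reads per library, and counts without molecular identifiers are not independent molecules.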
